A study of Mus musculus with 20 samples.

Results

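The 38 genes described here belong to the unfolded protein response of the endoplasmic reticulum (ER) and to the amino acid stress response, and they were read from the kidneys of male mice with a normal or a mutated androgen receptor. They were taken by gene symbol from a list of 38 names, out of 24762 genes in the deposited counts. 24 of them form the ER arm (15 folding factors, 4 genes that encode the sensors and the factor XBP1, and 5 genes of ER-associated degradation) and 14 the ATF4 arm (5 transcription factors, 4 enzymes of serine and asparagine synthesis, and 5 feedback and signal genes). Of the 38, 37 had enough reads to be tested. The hormone gene Fgf21 did not: it had 0 reads over the 5 ARLmon testosterone libraries, 1 over the 5 ARLmon vehicle libraries, 6 over the 5 wild type (WT) testosterone libraries and 3 over the 5 WT vehicle libraries.

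Poly(A) RNA of 20 kidney samples was sequenced in 4 groups of 5 libraries. The groups were ARLmon/Y with testosterone, ARLmon/Y with vehicle, WT with testosterone and WT with vehicle, all on a C57BL/6J background. Every mouse in all 4 groups had been orchidectomised, which removes the main source of androgen, and the replacement lasted 4 days. ARLmon is an androgen receptor mutant whose ligand-binding domains cannot pair as dimers. It changes the receptor protein in every cell that makes it, so read counts per gene cannot check the genotype, and the labels give no age. Nor do they state that the 5 libraries of a group come from 5 animals, so the p-values below speak of the spread among libraries, part of which may be technical. Per-library values below follow the library codes, GC078612 to GC078616 for ARLmon testosterone, GC078617 to GC078621 for ARLmon vehicle, GC078607 to GC078611 for WT testosterone and GC078602 to GC078606 for WT vehicle.

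When unfolded proteins build up in the ER, the sensors IRE1 (gene Ern1), ATF6 and PERK (gene Eif2ak3) signal to the nucleus. IRE1 splices the Xbp1 mRNA, and ATF6 is cut to free a transcription factor. XBP1 and ATF6 then switch on chaperones, disulfide isomerases and the machinery that pulls failed proteins out of the ER for degradation. PERK phosphorylates the translation factor eIF2-alpha, as does the amino acid sensor GCN2, and this favours translation of ATF4, which drives amino acid synthesis genes, Ddit3 (CHOP) and feedback genes. The proximal tubule, which makes up much of the kidney cortex, is a secretory and reabsorbing epithelium and the main site of androgen action on the mouse kidney. Counts per gene show neither Xbp1 splicing nor protein phosphorylation.

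The promoters of the members carry a part of this wiring in their sequence. In the 250 bases before the RefSeq start (GRCm38.p6), 35 of the 38 members had an entry (not Manf, Hyou1 or Atf6), 21 in the ER arm and 14 in the ATF4 arm. The ER stress element (ERSE, the letters CCAAT, then 9 bases of any kind, then CCACG, searched on both strands), at which ATF6 binds with NF-Y, stood in 9 of 21 ER arm promoters (42.9%), in 0 of 14 ATF4 arm promoters, and in 33 of 27025 mouse promoters of the same length (0.122%). The stretches that follow are shown because they are the DNA feature that sets the ER arm apart by count. They run 5′ to 3′ on the gene's strand, capitals mark the element, and an element on the other strand reads as its reverse complement, CGTGG first. Hsp90b1 held it at 2 places.
Hspa5 (chr2:34772020-34772048, plus strand): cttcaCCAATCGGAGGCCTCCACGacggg
Hsp90b1, farther from the start (chr10:86705633-86705661, minus strand): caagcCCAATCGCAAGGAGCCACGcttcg
Hsp90b1, nearer (chr10:86705528-86705556, minus strand): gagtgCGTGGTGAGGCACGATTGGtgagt
Calr (chr8:84847070-84847098, minus strand): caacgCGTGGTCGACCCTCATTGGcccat
Canx (chr11:50325795-50325823, minus strand): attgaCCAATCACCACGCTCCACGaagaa
Pdia6 (chr12:17266486-17266514, plus strand): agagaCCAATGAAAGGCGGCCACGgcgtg
Dnajc3 (chr14:118937822-118937850, plus strand): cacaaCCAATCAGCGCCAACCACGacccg
Creld2 (chr15:88819515-88819543, plus strand): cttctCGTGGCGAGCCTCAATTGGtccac
Syvn1 (chr19:6046527-6046555, plus strand): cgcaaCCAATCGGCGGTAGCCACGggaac
Derl3 (chr10:75893237-75893265, plus strand): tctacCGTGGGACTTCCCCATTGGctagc

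A shorter form of the element, ERSE-II (ATTGG, 1 base of any kind, CCACG), stood in the promoter of Herpud1 and in 9 of 27025 promoters (0.0333%). The XBP1 core TGACGTGG matched 0 of 21 ER arm promoters and 136 of all promoters (0.503%). The amino acid response element (CARE, TGATGNAA), at which ATF4 binds with C/EBP partners, matched 4 of 14 ATF4 arm promoters and 954 of 27025 (3.53%), and 1 of 21 in the ER arm, again Herpud1. These are shown because Herpud1 alone among the 35 held an element of both arms.
Herpud1, ERSE-II (chr8:94386372-94386392, plus strand): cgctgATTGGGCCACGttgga
Herpud1, CARE (chr8:94386312-94386329, plus strand): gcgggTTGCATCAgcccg
Atf3, CARE (chr1:191183431-191183448, minus strand): cgcacTTGCATCAccaag
Asns, CARE (chr6:7693220-7693237, minus strand): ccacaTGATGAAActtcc
Chac1, CARE (chr2:119351044-119351061, plus strand): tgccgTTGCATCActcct
Fgf21, CARE (chr7:45615617-45615634, minus strand): ccccaTTGCATCAtccgt

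Edem1 and Sel1l, the ER arm members with the largest differences in this study, held no ERSE in this window. Their 250 bases are shown for that reason, with CCACG on either strand in capitals, the piece at the end of the ERSE that ATF6 contacts. CCACG alone, within an ERSE or not, is common: it stood in 28.2% of all promoters, in 16 of 21 ER arm promoters and in 10 of 14 ATF4 arm promoters. A match describes the letters only, and no binding was measured here.
Edem1 (chr6:108828391-108828640, plus strand): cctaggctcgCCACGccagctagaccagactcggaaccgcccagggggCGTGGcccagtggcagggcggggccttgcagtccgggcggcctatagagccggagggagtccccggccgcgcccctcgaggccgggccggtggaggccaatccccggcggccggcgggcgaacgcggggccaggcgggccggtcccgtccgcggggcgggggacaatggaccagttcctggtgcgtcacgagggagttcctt
Sel1l (chr12:91849158-91849407, minus strand): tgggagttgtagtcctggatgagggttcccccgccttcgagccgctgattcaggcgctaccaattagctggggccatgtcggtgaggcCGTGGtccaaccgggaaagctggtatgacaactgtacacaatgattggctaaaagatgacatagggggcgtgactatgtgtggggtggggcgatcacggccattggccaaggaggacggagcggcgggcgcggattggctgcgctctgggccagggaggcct

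The libraries held 8342000 to 38101526 counted reads, and mitochondrial genes took 6.86% to 11.1% of them. Levels are given as CPM, counts per library total scaled by TMM factors, which rest on the bulk of genes. On the main axis of spread within groups (30.4% of that variance), the WT vehicle library GC078604 and the ARLmon vehicle library GC078618 lay farthest out. The WT vehicle library GC078606 was the highest of its group for many members of both arms, among them Hspa5, Manf, Derl3, Hyou1, Psat1 and Trib3. In SDs from each gene's mean, its ATF4 arm average was 1.37, the highest of all 20 libraries. Its ER arm average was 0.67, the highest of its group. The ARLmon vehicle library GC078620 held 52.8 CPM of 5 adrenal gland markers in sum, against at most 2.55 CPM in each other library. The kidney markers Slc34a1, Lrp2 and Umod were high in all 4 groups, at group means of at least 1916 CPM. Per kilobase of exon, the most abundant members over the 4 groups were the disulfide isomerase subunit P4hb at 294 CPM per kilobase, Calr at 250.1, Pdia3 at 181, Hsp90b1 at 134 and Hspa5 at 111. Low levels were found for Trib3 at 0.803, Derl3 at 0.601 and Chac1 at 0.598 CPM per kilobase. Calr and Phgdh each have a processed pseudogene, and parts of the exons of Cebpb (20.7%, with Tmem189), Psph (10.4%, with Cct6a), Hsp90b1 (10.3%, with 1810014B01Rik), Eif2ak3 (8.05%, with Gm43292), Manf (4.71%, with 4930524O07Rik, and 4.14%, with Dcaf1), Atf5 (4.11%, with Nup62 and Il4i1) and Ddit3 (3.97%, with Mars) lie opposite another gene. Whether counting used strand is not given in the sources used here, so these members' values are uncertain by the reads of their partners.

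**Figure D1:**
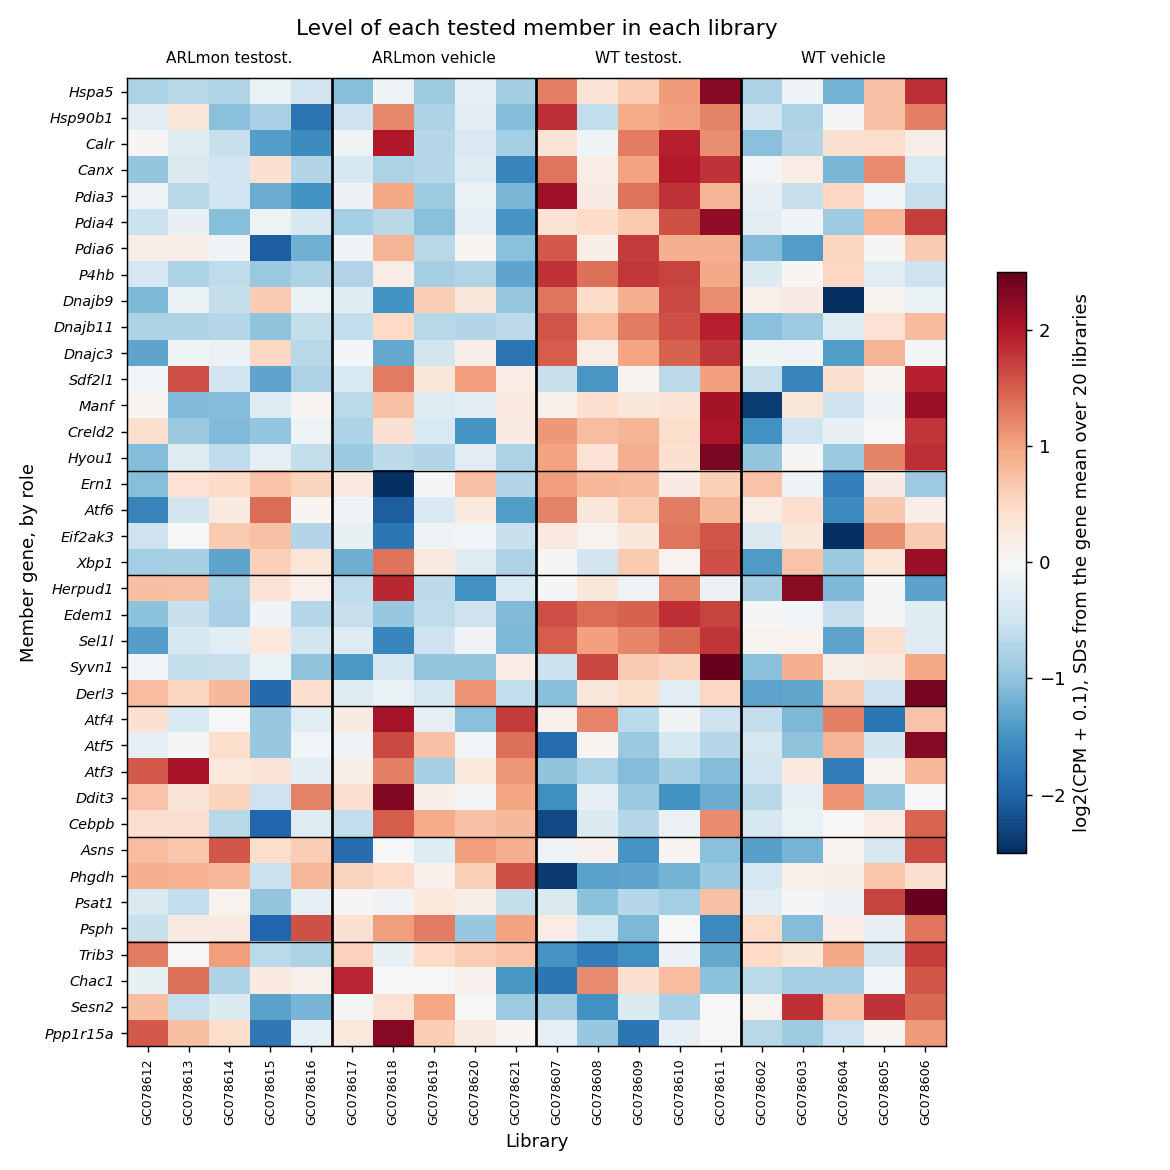
Level of the 37 tested members in each of the 20 libraries, as log2(CPM + 0.1) in standard deviations from the gene's mean over all libraries (color, red above the mean and blue below); rows are grouped by role and columns by group. Most ER folding rows and Edem1 and Sel1l are red mainly in the 5 WT testosterone libraries, where the Phgdh row is blue. The folding gene Sdf2l1 is an exception, with its lowest group mean there. Among these 5 libraries GC078608 has the lowest ER arm average, at 0.37. The WT vehicle library GC078606 is also red for much of both arms.

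The first comparison asked which members testosterone changed in WT kidneys. Among the ER arm 7 of 24 rose and 0 fell, led by the degradation genes Edem1 and Sel1l, while of the 13 tested ATF4 arm members 4 fell and 0 rose. Over all 15549 genes tested, 9.36% rose and 6.36% fell (15.7% in all, 2444 genes; edgeR's quasi-likelihood test, Benjamini-Hochberg adjusted p below 0.05 over all genes tested here and throughout). The median log2 difference was 0.24 in the ER arm and -0.34 in the ATF4 arm, against -0.03 over all genes. Without GC078606 the ATF4 arm's median was -0.19. Over all genes tested 7088 lay above 0 and 8461 below. Above 0 lay 22 of 24 ER arm members (20 of 24 with library size as the only scaling), and below 0 lay 11 of 13 ATF4 arm members (13 of 13 with that scaling). That scaling moved the median of all genes to -0.18, and the ER arm's median then lay 0.28 above it, as with TMM. It also turned the split of calls over all genes to 897 higher and 2687 lower (1455 and 989 with TMM).

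Edem1 (chr6:108828641-108859356, GRCm38, as all gene positions here), which recognises misfolded glycoproteins and hands them to degradation, stood at 185, 168, 173, 202 and 191 CPM in the WT testosterone libraries, against 87.3, 86.3, 68.2, 86.9 and 77.4 CPM in the WT vehicle libraries. All 5 testosterone libraries were above all 5 vehicle libraries, and the log2 rise was 1.18 ± 0.11 (edgeR adjusted p = 9.19e-08; the value after ± is the standard error of a log2 difference in all comparisons). Sel1l (chr12:91806043-91849157), the adaptor of the HRD1 ubiquitin ligase, stood at 176, 153, 161, 172 and 191 CPM with testosterone and at 116, 116, 77.1, 129 and 103 CPM with vehicle. Its groups did not overlap either, and it rose by 0.65 ± 0.14 (edgeR adjusted p = 0.00238). Groups without overlap in this direction were found for 8.34% of all genes tested. The ligase gene itself, Syvn1, with a log2 difference of 0.16, and Herpud1 (0.09) and Derl3 (-0.22) did not pass the test. Derl3 rested on few reads, with group means of 1.05 to 1.42 CPM.

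Among the 15 folding factors 5 rose, and their changes were smaller. P4hb (chr11:120560298-120573253) had 1125, 1044, 1115, 1101 and 973 CPM in the WT testosterone libraries and 784, 836, 905, 791 and 762 CPM in the WT vehicle libraries, with no overlap. It rose by 0.39 ± 0.08 (edgeR adjusted p = 0.00136). Dnajb11 (chr16:22857845-22879634), an ER co-chaperone of BiP, had 131, 109.5, 123, 133 and 143 CPM with testosterone and 72.8, 75.2, 85.7, 99.98 and 110.2 CPM with vehicle. The lowest testosterone library lay just under the highest vehicle library, GC078606, and the log2 rise was 0.53 ± 0.11 (edgeR adjusted p = 0.00181). Dnajb9 (chr12:44205559-44210326), a BiP co-chaperone that also restrains IRE1, had 53.7, 42.2, 47.3, 58.2 and 50.9 CPM with testosterone against 38.4, 39.2, 18.7, 38.1 and 35.5 CPM with vehicle. Every testosterone library was higher, and one vehicle library, GC078604, was far below the rest (log2 0.57 ± 0.18, edgeR adjusted p = 0.0364).

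Dnajc3 (chr14:118937976-118981697), an ER co-chaperone once described as an inhibitor of PERK, had 256, 191, 228, 253 and 271 CPM in WT testosterone libraries and 179.5, 180.3, 136, 221 and 182 CPM in WT vehicle libraries. Pdia3 (chr2:121413775-121438687), the disulfide isomerase that works with calnexin and calreticulin, had 739, 578, 669.7, 709 and 627 CPM with testosterone and 548, 523, 601, 557 and 523 CPM with vehicle. Both overlapped between groups and passed narrowly, at 0.42 ± 0.14 (edgeR adjusted p = 0.0466) for Dnajc3 and 0.27 ± 0.09 (edgeR adjusted p = 0.042) for Pdia3. Of the other 10 folding factors, 9 had log2 differences of 0.16 to 0.38 without passing, among them the master chaperone BiP (gene Hspa5) at 0.36 ± 0.18 (edgeR adjusted p = 0.183), and Sdf2l1 lay at -0.17.

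Leaving out single libraries moved some of these calls. Edem1, Sel1l, Dnajb11 and P4hb were called in all 20 fits that left out 1 library, and they were the 4 called with library size as the only scaling. Without GC078607, GC078609 or GC078610, 3 of the 5 WT testosterone libraries, 4 ER arm members were called. The call of Dnajb9 was lost without any one of GC078604, GC078606, GC078607, GC078609, GC078610 or GC078611 (log2 differences of 0.42 to 0.60, adjusted p up to 0.1). That of Pdia3 was lost without GC078602, GC078603, GC078605, GC078606, GC078607, GC078609, GC078610, GC078613, GC078614 or GC078617 (log2 0.23 to 0.28, adjusted p up to 0.116). Dnajc3 lost its call in 13 of 20 such fits, those without GC078602, GC078603, GC078604, GC078606, GC078607, GC078609, GC078610, GC078611, GC078613, GC078614, GC078616, GC078617 or GC078619 (log2 0.33 to 0.44, with the same highest adjusted p). Without GC078606 Hspa5 (log2 0.56, edgeR adjusted p = 0.0155) and Creld2 (0.57, 0.018) were also called, and Canx was called without GC078605 or GC078608 and by DESeq2. Without GC078604 and GC078618 together, chosen after the data were seen, 6 ER arm members were called.

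The sensors did not pass the test. Ern1 had 37.5, 35.5, 35.3, 30.4 and 33.5 CPM in WT testosterone libraries against 34.5, 28.1, 18.9, 30.4 and 22.997 CPM in WT vehicle libraries (log2 0.35 ± 0.19, edgeR adjusted p = 0.232). Atf6 had 74.3, 65.05, 68.3, 75.1 and 70.2 CPM with testosterone against 64.1, 66.2, 50.05, 68.6 and 63.9 CPM with vehicle (0.17 ± 0.11, adjusted p = 0.324). In both genes the groups overlapped, and the lowest vehicle library was GC078604. Eif2ak3 differed by 0.20 (95% interval -0.09 to 0.49) and Xbp1 by 0.03 (-0.22 to 0.28).

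**Figure D2:**
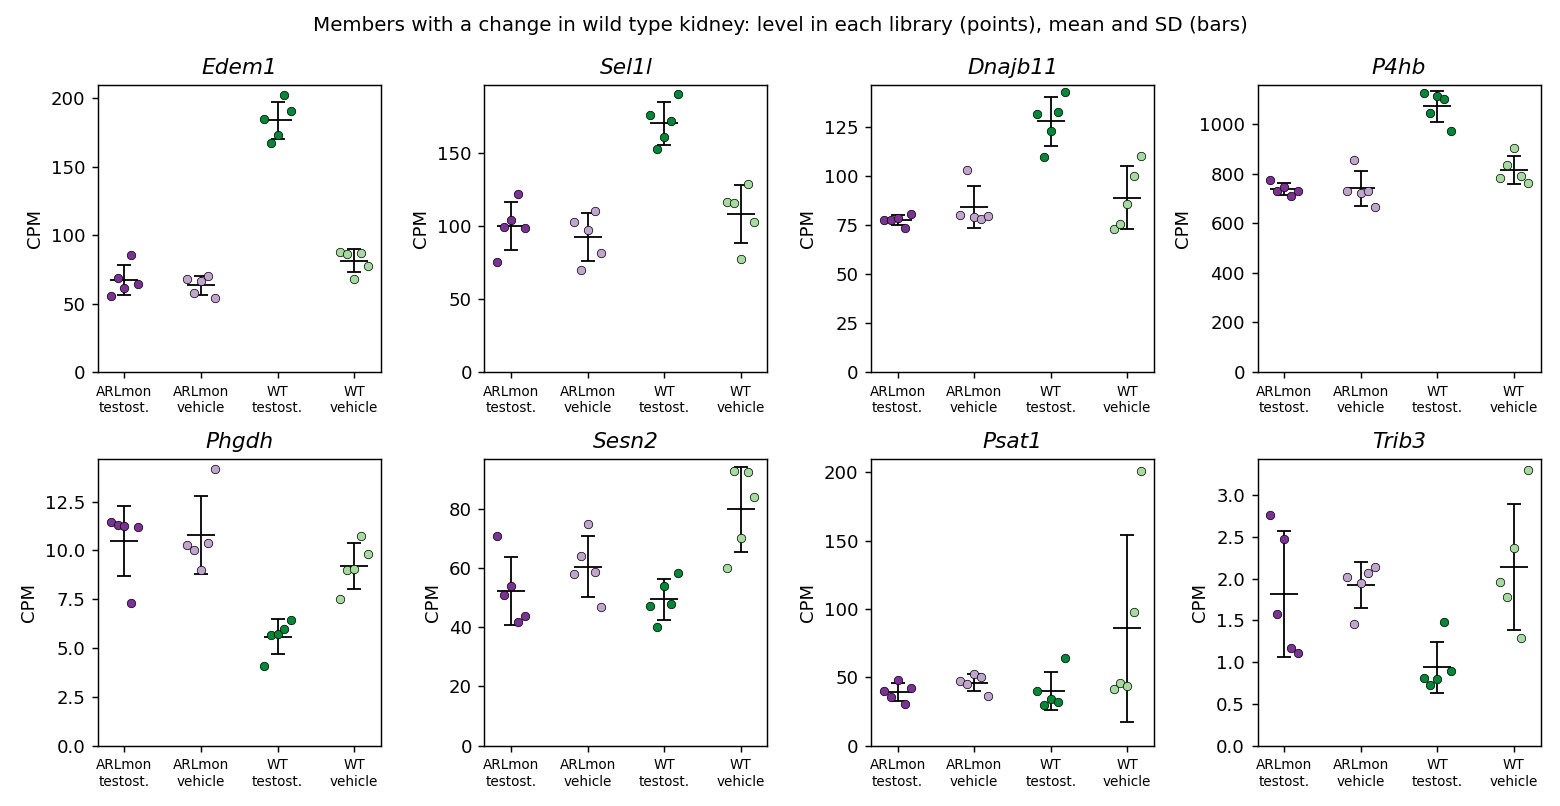
CPM of 8 members in each library (points) with the group mean and SD (bars) for ARLmon with testosterone, ARLmon with vehicle, WT with testosterone and WT with vehicle. In the top row the WT testosterone points of Edem1, Sel1l and P4hb lie above all other points; in the bottom row those of Phgdh lie below all others, and Psat1 has 1 WT vehicle library at 201 CPM.

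On the ATF4 side 2 of the 4 serine and asparagine synthesis genes and 2 of the 4 tested feedback genes fell with testosterone, and 0 of the 5 transcription factors passed. Phgdh (chr3:98313170-98339990), which encodes the enzyme that commits glycolytic carbon to serine, had 4.08, 5.68, 5.70, 5.98 and 6.44 CPM in the WT testosterone libraries, against 7.51, 8.98, 9.05, 10.7 and 9.79 CPM in the WT vehicle libraries. Sesn2 (chr4:132492032-132510501), a leucine-sensing inhibitor of mTORC1, had 47.02, 40.1, 53.8, 47.8 and 58.3 CPM with testosterone and 59.9, 92.6, 70.1, 92.3 and 83.9 CPM with vehicle. In both, every testosterone library was below every vehicle library, which held for 4.21% of all genes. Phgdh changed by -0.72 ± 0.16 (edgeR adjusted p = 0.00338) and Sesn2 by -0.69 ± 0.15 (adjusted p = 0.0033), and both were called in all 20 fits that left out 1 library.

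Psat1 (chr19:15904678-15947337), the next enzyme of serine synthesis, had 40.1, 29.9, 34.3, 32.2 and 64.2 CPM with testosterone and 41.8, 46.1, 43.9, 97.5 and 201 CPM with vehicle in WT. The difference of -1.09 ± 0.34 (edgeR adjusted p = 0.0324) leaned on the vehicle library GC078606, the highest of all: without it the value was -0.52 (adjusted p = 0.179), and the call was also lost without GC078605, GC078607, GC078608, GC078609 or GC078610 (adjusted p up to 0.0869, log2 values as low as -1.09). Trib3 (chr2:152337422-152344032), a pseudokinase that dampens ATF4 and CHOP, had 0.815, 0.725, 0.796, 1.48 and 0.891 CPM with testosterone and 1.95, 1.78, 2.36, 1.29 and 3.30 CPM with vehicle. It changed by -1.07 ± 0.31 (edgeR adjusted p = 0.0211), a call lost without GC078606 (log2 -0.90), GC078607 (-1.03) or GC078608 (-0.99), with adjusted p up to 0.054. Without any one of these 3 libraries, 2 members of the ATF4 arm were called in place of 4. The last serine enzyme, Psph, lay at -0.12 and asparagine synthetase, Asns, at -0.06, and neither passed.

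Atf4 mRNA itself did not differ detectably (0.06, 95% interval -0.24 to 0.37). The other 4 transcription factors had log2 differences of -0.44 (Ddit3) to -0.31 (Cebpb) and did not pass, though Atf5 and Ddit3 were called lower when scaled by library size alone. Of the remaining targets, the glutathione-degrading enzyme gene Chac1 lay at 0.13 and Ppp1r15a, the phosphatase subunit that reverses the translation block, at -0.11. Immediate early genes, which, like Atf3, answer stimuli quickly, were read beside this arm. Over 20 listed genes the sum was 312 to 562 CPM in WT testosterone libraries and 419 to 591 CPM in WT vehicle libraries. Of these genes 1 of 19 tested fell (Ier5, -0.60 ± 0.20, edgeR adjusted p = 0.041), beside 6.36% of all genes. All 19 differences were below 0, with a median of -0.42, where 8461 of all 15549 genes tested lay below 0. Their part in the ATF4 arm result was not tested.

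The second comparison asked the same of ARLmon kidneys. By edgeR testosterone changed 0 of 37 members there, and 0% of all genes passed (0 of 15549 genes, 813 at an unadjusted p under 0.05). DESeq2 also called 0 genes (844 unadjusted) and limma-voom 0 (808). At the unadjusted level 1 member passed, the transcription factor Cebpb at -0.83 ± 0.40 (edgeR adjusted p = 0.774). The median log2 difference was 0.03 in the ER arm and -0.14 in the ATF4 arm, against 0.01 over all genes. Above 0 lay 14 of 24 ER arm members, and below 0 lay 10 of 13 ATF4 arm members. Over all genes tested 7956 lay above 0 and 7590 below. Leaving out single libraries gave medians of -0.0025 to 0.06 in the ER arm (lowest without GC078615, highest without GC078612) and of -0.23 to -0.03 in the ATF4 arm (lowest without GC078612, highest without GC078615).

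Edem1 stood at 55.9, 68.96, 61.4, 85.3 and 64.5 CPM in the ARLmon testosterone libraries and at 68.2, 57.6, 66.7, 70.1 and 53.9 CPM in the ARLmon vehicle libraries. Sel1l had 75.6, 99.6, 104, 122 and 98.7 CPM with testosterone and 103, 70.1, 97.03, 110.3 and 81.3 CPM with vehicle. The groups overlapped for both genes, with log2 differences of 0.09 (95% interval -0.14 to 0.31) and 0.12 (-0.18 to 0.41). P4hb had 774, 729, 747, 709.5 and 729.9 CPM in ARLmon testosterone libraries and 731, 857, 722, 732 and 665 CPM in ARLmon vehicle libraries. Dnajb11 had 77.4, 77.4, 78.4, 73.5 and 80.6 CPM with testosterone and 80.1, 103, 78.9, 78.2 and 79.5 CPM with vehicle. Their differences were -0.01 (-0.17 to 0.16) and -0.12 (-0.35 to 0.11), and the highest vehicle library of both was GC078618. Of the other WT risers, Dnajb9 had 27.3, 35.6, 31.6, 44.4 and 35.5 CPM in ARLmon testosterone libraries and 34.2, 24.7, 43.9, 40.2 and 28.7 CPM in ARLmon vehicle libraries. Dnajc3 had 138, 179.6, 178, 205 and 158 CPM with testosterone and 182, 139, 166, 191 and 123 CPM with vehicle, and Pdia3 had 554, 515, 528, 480.03 and 465 CPM with testosterone and 552, 637, 503, 552 and 486 CPM with vehicle. All 3 overlapped, at log2 0.02, 0.10 and -0.10.

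In the ATF4 arm Phgdh had 11.5, 11.3, 11.2, 7.30 and 11.2 CPM in ARLmon testosterone libraries and 10.3, 10.01, 9.005, 10.4 and 14.2 CPM in ARLmon vehicle libraries. Sesn2 had 70.7, 50.8, 53.8, 41.8 and 43.7 CPM with testosterone and 57.9, 64.1, 74.9, 58.7 and 46.7 CPM with vehicle. The groups overlapped, at -0.04 (95% interval -0.36 to 0.27) and -0.21 (-0.53 to 0.10). Psat1 had 39.8, 35.7, 48.4, 30.5 and 42.2 CPM with testosterone and 47.2, 45.001, 52.3, 50.4 and 36.1 CPM with vehicle, and Trib3 had 2.76, 1.58, 2.47, 1.17 and 1.11 CPM with testosterone and 2.02, 1.45, 1.95, 2.07 and 2.14 CPM with vehicle. Neither differed beyond its spread (log2 -0.23 and -0.12). The sensors Ern1 (22.1, 31.7, 32.6, 34.5 and 33.1 CPM with testosterone, 30.7, 13.9, 28.6, 34.7 and 24.03 CPM with vehicle) and Atf6 (49.4, 58.6, 64.5, 75.98 and 62.8 CPM with testosterone, 61.6, 46.7, 59.1, 64.6 and 51.3 CPM with vehicle) lay at 0.22 and 0.14.

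**Figure D3:**
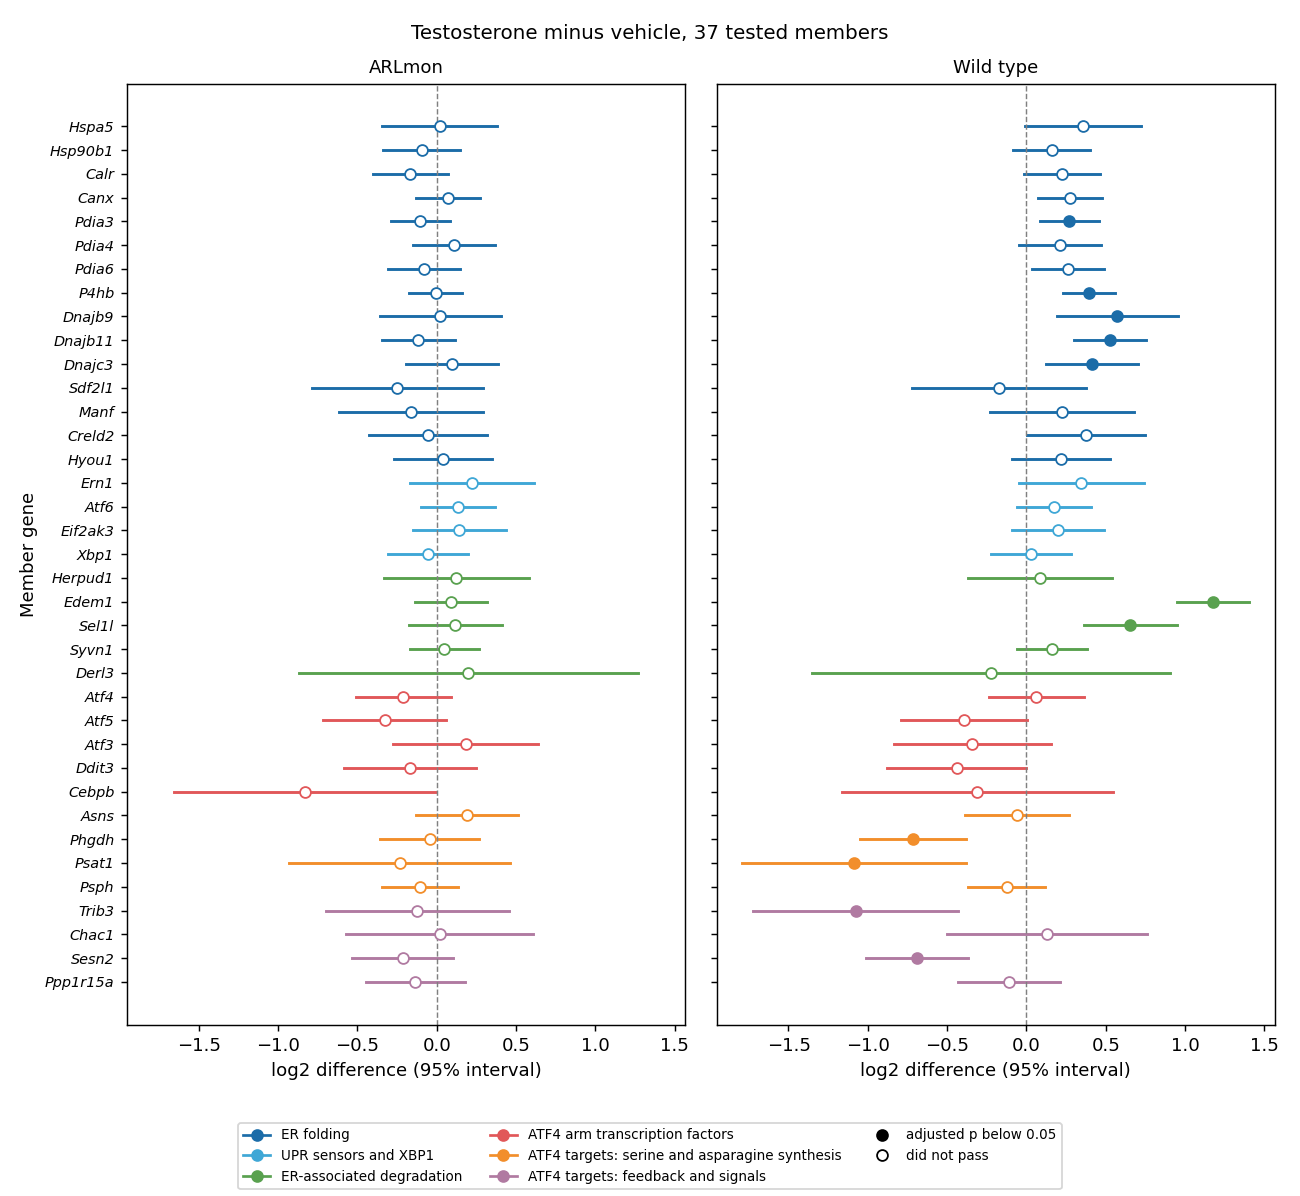
Log2 difference, testosterone minus vehicle, of each tested member in ARLmon (left) and WT (right) kidneys, with 95% intervals; filled points passed an adjusted p below 0.05, open points did not, and color gives the role. In ARLmon 0 of 37 points are filled, and in WT 7 ER arm points are filled to the right of 0 and 4 ATF4 arm points to the left.

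The third comparison set the genotypes side by side with testosterone in both. In ARLmon 16 of 24 ER arm members were lower and 0 higher, among them 13 of the 15 folding factors, while of the ATF4 arm 4 were higher and 0 lower. Over all genes 31.1% differed, 15.5% lower and 15.6% higher. The median log2 difference was -0.38 in the ER arm and 0.20 in the ATF4 arm, against 0.04 over all genes. The ATF4 arm's median was 0.13 without GC078607 and 0.12 without GC078612. Over all genes tested 8417 lay above 0 and 7132 below. The difference was below 0 for 21 of 24 ER arm members (17 of 24 with library size as the only scaling) and above 0 for 10 of 13 ATF4 arm members (13 of 13 with that scaling). That scaling moved the median of all genes to 0.28, called 5690 genes higher and 1213 lower (2431 and 2411 with TMM), and called 4 ER arm members lower, again Edem1, Sel1l, Dnajb11 and P4hb. Relative to the median of all genes the ER arm lay at -0.41 under both scalings.

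Edem1 averaged 67.2 ± 11.2 CPM in ARLmon testosterone libraries and 184 ± 13.8 CPM in WT testosterone libraries (SD, n = 5 each, here and below), a difference of -1.45 ± 0.11 (edgeR adjusted p = 1.73e-09). Sel1l averaged 99.99 ± 16.6 CPM in ARLmon and 170.4 ± 14.6 CPM in WT, -0.77 ± 0.14 (edgeR adjusted p = 0.000289). The ligase gene Syvn1, which had not passed between treatments, was lower in ARLmon too. It had 50.5, 46.9, 46.98, 49.9 and 44.2 CPM in ARLmon testosterone libraries and 47.3, 64.8, 56.1, 55.3 and 73.2 CPM in WT testosterone libraries, which overlap (-0.32 ± 0.11, edgeR adjusted p = 0.0279). With vehicle Syvn1 had 41.5, 47.996, 44.3, 44.2 and 52.5 CPM in ARLmon and 43.9, 58.2, 52.2, 52.8 and 58.6 CPM in WT. Its call was lost without GC078608, GC078611, GC078613, GC078614 or GC078616 (log2 -0.31 to -0.23, adjusted p up to 0.105).

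Hspa5, which encodes BiP, the chaperone that also holds the sensors silent, had 364, 374, 369, 432 and 395 CPM in the ARLmon testosterone libraries and 635, 493, 536, 603 and 836 CPM in the WT testosterone libraries. Every ARLmon library was lower, as for 13.1% of all genes (-0.68 ± 0.18, edgeR adjusted p = 0.00541). With vehicle Hspa5 had 338, 436, 355, 424 and 357 CPM in ARLmon and 367, 436, 328, 550.4 and 744 CPM in WT, and these overlapped widely. Hyou1, the exchange factor that recharges BiP, had 80.1, 94.9, 88.4, 96.2 and 89.2 CPM in ARLmon and 127, 110.1, 124, 111 and 170.1 CPM in WT with testosterone, without overlap (-0.52 ± 0.15, edgeR adjusted p = 0.0116). With vehicle it had 82.6, 87.8, 86.3, 95.3 and 85.4 CPM in ARLmon and 82.04, 102, 82.7, 133 and 152 CPM in WT. In both genes the widest spread was in the WT vehicle group. Hsp90b1, the ER paralog of HSP90, had 516, 561, 459.5, 475 and 409 CPM in ARLmon and 702, 489, 615, 623 and 644 CPM in WT with testosterone, which overlap (-0.34 ± 0.12, edgeR adjusted p = 0.0298). With vehicle it had 497, 640.5, 477, 515 and 456 CPM in ARLmon and 499, 477, 534, 597 and 646 CPM in WT.

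The lectin chaperones Calr and Canx, which hold glycoproteins while they fold, overlapped between genotypes. With testosterone Calr had 716, 682, 659, 587 and 570.02 CPM in ARLmon and 747, 702, 855, 940.03 and 842 CPM in WT, and with vehicle 705, 950.2, 645, 675 and 631 CPM in ARLmon and 614, 643, 754, 759 and 729 CPM in WT. Canx had 411, 449, 442, 502 and 426 CPM in ARLmon and 578, 488, 550.1, 635 and 619 CPM in WT with testosterone, and 447, 422, 428, 453 and 372 CPM in ARLmon and 470.1, 487, 401, 564 and 448 CPM in WT with vehicle. Calr differed with testosterone by -0.35 ± 0.12 (edgeR adjusted p = 0.0262) and Canx by -0.36 ± 0.10 (adjusted p = 0.00678). The disulfide isomerases Pdia4 and Pdia6 did not overlap. With testosterone Pdia4 had 95.2, 102, 86.2, 103 and 97.7 CPM in ARLmon and 113, 115, 119, 143 and 162 CPM in WT, and with vehicle 89.6, 92.6, 86.4, 101 and 79.5 CPM in ARLmon and 100.4, 104, 88.8, 124 and 147 CPM in WT. Pdia6 had 206, 206, 199, 150.4 and 169.8 CPM in ARLmon and 250.2, 206, 258, 229 and 228 CPM in WT with testosterone, the nearest values of the groups almost touching, and 199, 227, 183, 203 and 173 CPM in ARLmon and 173, 165, 217, 202 and 221 CPM in WT with vehicle. Under testosterone they differed by -0.43 ± 0.12 (edgeR adjusted p = 0.0112) and -0.33 ± 0.11 (adjusted p = 0.0246).

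Creld2, a small ER stress-induced protein, had 26.2, 18.8, 18.03, 18.6 and 23.1 CPM in ARLmon and 31.3, 28.9, 29.4, 26.5 and 39.6 CPM in WT with testosterone, and 19.5, 26.1, 21.6, 16.4 and 25.02 CPM in ARLmon and 16.3, 20.99, 22.7, 23.8 and 37.2 CPM in WT with vehicle. The testosterone groups were separate by a narrow margin (-0.58 ± 0.18, edgeR adjusted p = 0.0194). The members that had risen in WT were also lower in ARLmon, P4hb by -0.54 ± 0.08, Dnajb11 by -0.72 ± 0.11, Dnajb9 by -0.53 ± 0.18, Dnajc3 by -0.48 ± 0.14 and Pdia3 by -0.39 ± 0.09. This contrast and the WT contrast share the WT testosterone libraries, so the 2 sets of values are not independent. Manf, a secreted ER protein, lay at -0.45 ± 0.22 with all ARLmon libraries below all WT libraries but did not pass (edgeR adjusted p = 0.126), and Sdf2l1 lay at 0.07. The 4 sensor and Xbp1 differences were -0.18 to -0.15 and did not pass.

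Single libraries moved some of these calls. Hsp90b1 was not called without GC078607, GC078610, GC078611, GC078614 or GC078616 (log2 -0.34 to -0.29), nor Calr without GC078609, GC078610, GC078611, GC078615 or GC078616 (-0.34 to -0.29). Pdia6 was not called without GC078607, GC078609, GC078615 or GC078616 (-0.31 to -0.26), nor Creld2 without GC078611 or GC078614 (-0.53 to -0.47). Dnajb9 was not called without any one of GC078607, GC078610, GC078611, GC078612, GC078613, GC078614 or GC078616 (-0.54 to -0.46). The largest adjusted p in these fits was 0.0833, and the other 10 ER arm calls, Syvn1 apart, held in all 20. Between 11 and 16 ER arm members were called when 1 library was left out.

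Of the ATF4 arm, Phgdh averaged 10.5 ± 1.79 CPM in ARLmon testosterone libraries and 5.58 ± 0.891 CPM in WT testosterone libraries, with no overlap, as for 9.44% of all genes (0.90 ± 0.16, edgeR adjusted p = 0.000213). Atf3, a stress-induced factor at low level, had 4.36, 5.10, 2.99, 3.04 and 2.55 CPM in ARLmon and 2.04, 2.18, 1.99, 2.14 and 1.98 CPM in WT with testosterone, and 2.88, 4.02, 2.15, 2.98 and 3.85 CPM in ARLmon and 2.37, 2.98, 1.63, 2.82 and 3.53 CPM in WT with vehicle. The WT testosterone libraries were tightly grouped below all ARLmon testosterone libraries (0.80 ± 0.24, edgeR adjusted p = 0.0141). Ddit3 had 19.4, 17.2, 18.5, 13.2 and 22.8 CPM in ARLmon and 9.65, 14.6, 11.7, 9.74 and 10.6 CPM in WT with testosterone, and 17.7, 31.997, 16.3, 15.4 and 21.2 CPM in ARLmon and 12.5, 14.5, 22.1, 11.6 and 15.6 CPM in WT with vehicle. Only the lowest ARLmon testosterone library, GC078615, reached into the WT range (0.70 ± 0.21, edgeR adjusted p = 0.0156). Trib3 averaged 1.82 ± 0.756 CPM in ARLmon and 0.941 ± 0.305 CPM in WT (0.86 ± 0.32, edgeR adjusted p = 0.0437).

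Asns had every ARLmon testosterone library above every WT testosterone library without passing (0.32 ± 0.16, edgeR adjusted p = 0.135). Psat1 and Sesn2, which fell in WT, did not differ detectably here (-0.03, 95% interval -0.74 to 0.67, and 0.07, -0.25 to 0.40). The call of Atf3 was lost without GC078613 (log2 0.63, edgeR adjusted p = 0.0545), and so was that of Trib3 (0.91, 0.0553), which left 2 members called. Trib3 also lost its call without GC078603, GC078607, GC078608, GC078609, GC078611, GC078612, GC078614, GC078617 or GC078619 (log2 0.67 to 0.86, adjusted p up to 0.123). It was not called either with limma-voom, without the filter on low counts, or with only the groups compared in the fit. Immediate early genes summed to 319 to 828 CPM in ARLmon testosterone libraries and 312 to 562 CPM in WT testosterone libraries. Of the 19 tested 6 were higher in ARLmon, beside 15.6% of all genes, such as Nr4a1 (1.22 ± 0.29), Klf6 (0.57 ± 0.16) and Btg2 (0.69 ± 0.23). All 19 differences were above 0, with a median of 0.50, where 8417 of all 15549 genes tested lay above 0. Their part in the ATF4 arm difference was not tested.

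**Figure D4:**
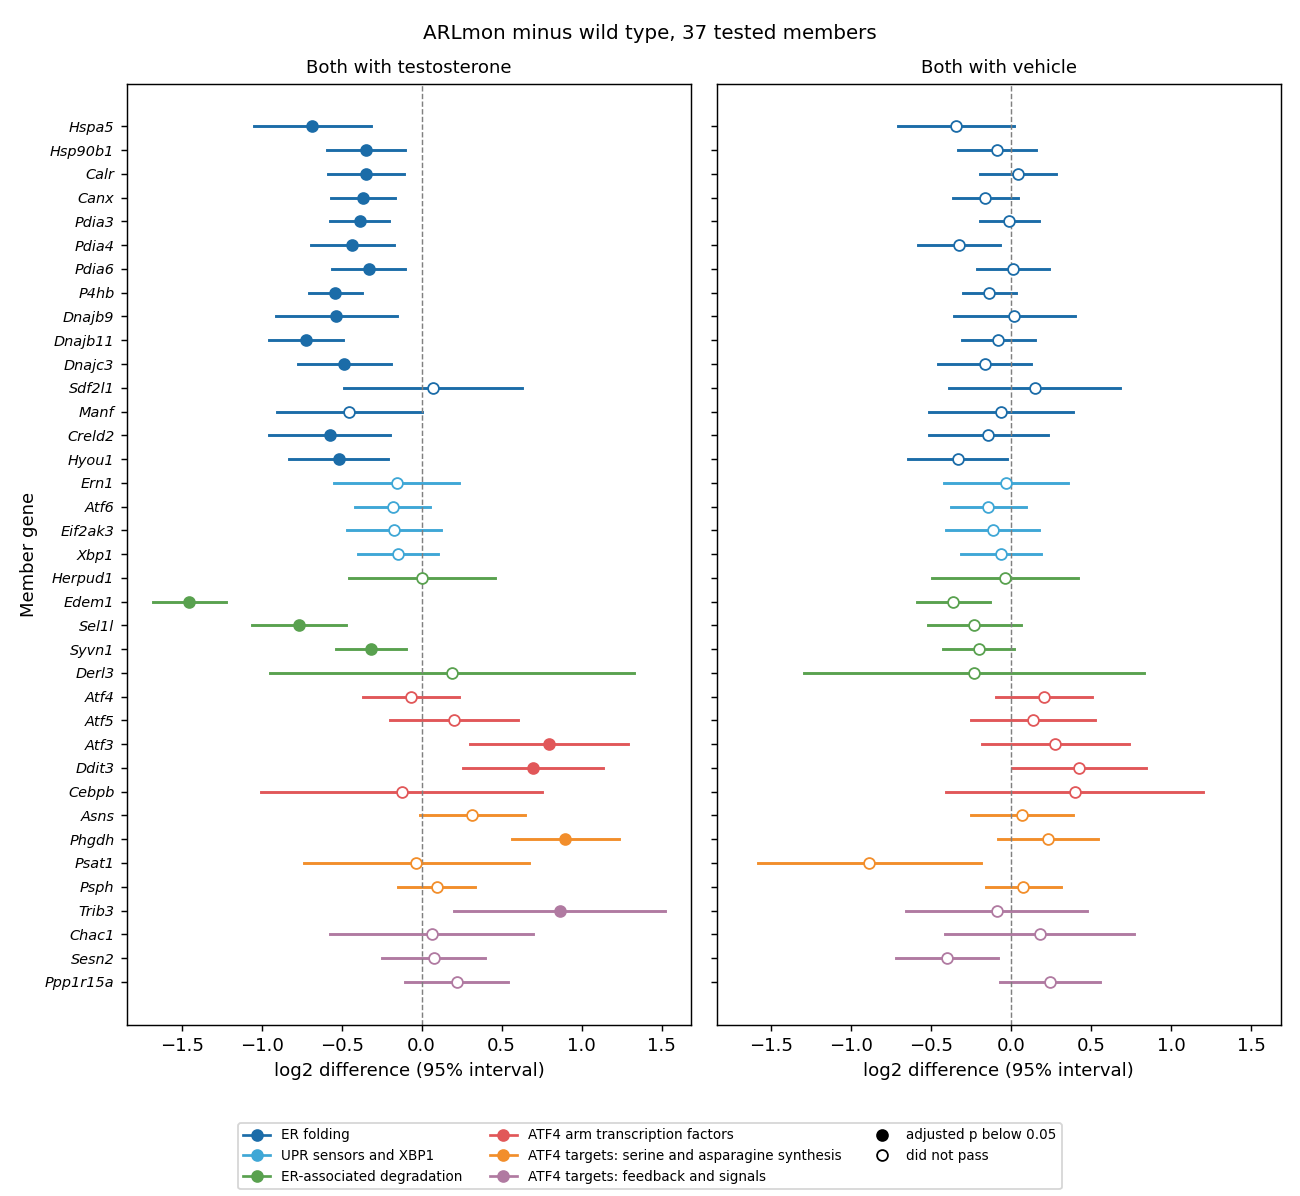
Log2 difference, ARLmon minus WT, of each tested member with testosterone (left) and with vehicle (right), with 95% intervals; filled points passed an adjusted p below 0.05, and color gives the role. With testosterone 16 ER arm points are filled left of 0 and 4 ATF4 arm points right of 0; with vehicle 0 are filled.

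With vehicle in both genotypes 0 of 37 members differed, against 4.37% of all genes, 1.99% higher and 2.38% lower (edgeR; 6 members at an unadjusted p under 0.05, and limma-voom also called 0). DESeq2 called 1, Edem1, at -0.37 (adjusted p = 0.0198). By edgeR Edem1 averaged 63.3 ± 7.13 CPM in ARLmon and 81.2 ± 8.36 CPM in WT, -0.36 ± 0.11 (adjusted p = 0.0643). It was called without GC078604 (log2 -0.42, Pdia4 then called too at -0.40), GC078612 (-0.36) or GC078615 (-0.36), and without GC078604 and GC078618 together (-0.39), with adjusted p of 0.0222 to 0.05. The others under 0.05 unadjusted were Pdia4 (-0.33), Hyou1 (-0.33), Ddit3 (0.42), Psat1 (-0.89) and Sesn2 (-0.40). All 37 members overlapped between genotypes, where 2.18% of all genes lay wholly higher in ARLmon and 2.39% wholly lower. The median was -0.13 in the ER arm and 0.18 in the ATF4 arm, against 0.00 over all genes. Below 0 lay 20 of 24 ER arm members (15 of 24 with library size as the only scaling). Above 0 lay 10 of 13 ATF4 arm members under both scalings. Over all genes tested 7899 lay above 0 and 7650 below with TMM. The ER arm's median was -0.08 without GC078605 or without GC078606, and -0.19 without GC078604 and GC078618. The ATF4 arm's was 0.10 without GC078603, 0.11 without GC078618 or without GC078621, 0.27 without GC078606 and 0.10 without GC078604 and GC078618. Scaled by library size alone, 550 genes were higher and 275 lower (310 and 370 with TMM).

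The last comparison tested whether the testosterone effect differed between genotypes, as the effect in ARLmon minus that in WT. It passed for 3 of 24 ER arm members, all more negative in ARLmon, and for 0 of 13 in the ATF4 arm (3 at an unadjusted p under 0.05, and 0 by DESeq2 and limma-voom), where 4.77% of all genes passed (1.42% positive and 3.34% negative). The effect on Edem1 was 0.09 in ARLmon and 1.18 in WT, a difference of -1.09 ± 0.15 (edgeR adjusted p = 9.54e-05). For Dnajb11 it was -0.12 in ARLmon and 0.53 in WT (-0.64 ± 0.16, edgeR adjusted p = 0.0157). For P4hb it was -0.01 in ARLmon and 0.39 in WT (-0.40 ± 0.11, edgeR adjusted p = 0.0418). The calls of Edem1 and Dnajb11 held without each single library, but that of Dnajb11 was lost when scaled by library size alone (log2 -0.46) and with limma on the deposited log2 values (-0.47). That of P4hb held without GC078604, GC078611, GC078612 or GC078621 and was lost without any one of the other 16 libraries (log2 -0.41 to -0.34, adjusted p up to 0.0811). The P4hb call was also lost with library size alone, without the filter on low counts and with limma on the deposited log2 values.

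For Sel1l the difference of the effects was -0.54 ± 0.20 (edgeR adjusted p = 0.148), so its rise in WT was not shown to differ from ARLmon. Likewise Pdia3 (-0.37 ± 0.13, edgeR adjusted p = 0.102) did not pass, although DESeq2 called it (adjusted p = 0.0406). Phgdh lay at 0.67 ± 0.22 (edgeR adjusted p = 0.0922), and was called without GC078615 (0.78, adjusted p = 0.0241), without GC078621 (0.79, 0.0317) and when scaled by library size alone (0.84, 0.0321). The median was -0.29 in the ER arm and 0.25 in the ATF4 arm, against 0.02 over all genes. The ATF4 arm's median was 0.09 without GC078604, 0.13 without GC078606 and 0.15 without GC078617, and the ER arm's was -0.17 without GC078604 and GC078618. In the ER arm 22 of 24 differences were negative (15 of 24 with library size as the only scaling, which moved the median of all genes to 0.20 and the split of calls over all genes to 715 positive and 340 negative, 221 and 520 with TMM).

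The promoter elements can be set beside these responses. Of the 9 ER arm members with an ERSE, 1 rose with testosterone in WT (Dnajc3), with a median log2 difference of 0.26, and of the 12 with a promoter entry and no ERSE 6 rose, with a median of 0.31. Over all genes tested 9.36% rose. Between genotypes under testosterone 8 of the 9 and 7 of the 12 were lower in ARLmon, beside 15.5% of all genes, with medians of -0.35 and -0.41. A link between the element and these changes was not tested. The 4 ATF4 arm promoters with a CARE belong to Atf3, Asns, Chac1 and Fgf21, and of these 1, Atf3, was called in any comparison. The 4 ATF4 arm members that fell in WT, Phgdh, Psat1, Trib3 and Sesn2, held none in this window.

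Genes of the same pathways outside the 38 were counted as well. Of 38 tested other ER folding and quality control genes, 10 rose and 1 fell with testosterone in WT (median 0.21), where 9.36% of all genes rose and 6.36% fell. The retrotranslocation genes Derl1 (149.7 CPM with testosterone, 106 CPM with vehicle, log2 0.50 ± 0.07) and Derl2 (0.47 ± 0.09) rose, and so did Ssr3 of the translocon (0.51 ± 0.10). With testosterone 16 of the 38 were lower and 3 higher in ARLmon, beside 15.5% and 15.6% of all genes. Among the lower ones were Derl1 (-0.64 ± 0.07), Derl2 (-0.68 ± 0.09) and Nucb2 (-0.81 ± 0.12). The effect differed between genotypes for Derl1 (-0.57 ± 0.10, edgeR adjusted p = 0.00081) and Derl2 (-0.58 ± 0.12, adjusted p = 0.00559), and for no other of the 38. Over all genes 4.77% passed that test, a share near that of this list. With vehicle 0 genes of the list differed between genotypes (3 unadjusted), beside 4.37% of all genes.

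Of 40 tested other amino acid response genes, 6 rose and 2 fell with testosterone in WT, not far from the 15.7% called over all genes. Slc3a2, the heavy chain of several amino acid transporters, fell (149 CPM with testosterone, 295 CPM with vehicle, log2 -0.98 ± 0.11), while the glycine transporter gene Slc6a9 (1.11 ± 0.14) and Shmt2, which converts serine to glycine in mitochondria (0.63 ± 0.10), rose. With testosterone 10 were lower and 4 higher in ARLmon, beside 31.1% of all genes, with the smallest p for Cbs, which joins homocysteine and serine (-1.72 ± 0.14), Bcat1 (-2.75 ± 0.25) and Slc6a9 (-1.58 ± 0.15). These 3 were also among the 5 that were lower in ARLmon with vehicle, at -0.95 ± 0.14, -1.74 ± 0.25 and -0.63 ± 0.15. Of all genes 2.38% were lower with vehicle. The effect differed between genotypes for Slc3a2 (0.87 ± 0.15), Shmt2 (-0.75 ± 0.14) and Slc6a9 (-0.95 ± 0.21), among 4 called in this list, beside 4.77% of all genes.

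Lists of protein folding genes outside the ER were called at shares that lie near those of all genes for the cytosolic heat shock genes. In WT 2 of 16 cytosolic heat shock genes rose with testosterone (9.36% of all genes), Dnaja1 (0.73 ± 0.13) and Hsp90aa1 (0.42 ± 0.12), and 2 of 10 mitochondrial folding genes, Hspd1 (0.53 ± 0.08) and Dnaja3 (0.25 ± 0.08). With testosterone 3 of the 16 were lower and 2 higher in ARLmon (31.1% of all genes differed), and 5 of the 10 mitochondrial genes were lower (15.5% of all genes), such as Clpx (-0.99 ± 0.17). With vehicle the heat shock gene Hspa1b was higher in ARLmon (0.69 ± 0.19), beside 1.99% of all genes. The effect of testosterone on Hspd1 differed between genotypes (-0.55 ± 0.12), beside 4.77% of all genes. In ARLmon edgeR called 0 genes of these lists and of the immediate early genes with testosterone (6 genes in all at an unadjusted p under 0.05).

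Secretory immune cells carry much ER machinery, and the summed level of the 8 plasma and B cell markers present was 16.8 to 149 CPM in ARLmon testosterone libraries, 21.8 to 209 CPM in ARLmon vehicle libraries, 26.3 to 118 CPM in WT testosterone libraries and 22.8 to 142 CPM in WT vehicle libraries. These ranges overlap, Igkc had the highest group means of the list (43.9 to 75.9 CPM), the plasma cell receptor gene Tnfrsf17 averaged at most 0.217 CPM, and by edgeR 0 of 6 tested markers passed with testosterone in WT (1 unadjusted) or between genotypes under testosterone (2 unadjusted). Mzb1 averaged 2.64 CPM in WT testosterone libraries, 1.61 CPM in WT vehicle libraries and 1.51 CPM in each ARLmon group. Of the 6 differences with testosterone in WT, 3 lay above 0 and 3 below. With vehicle 1 of the 6 was higher in ARLmon (edgeR adjusted p = 0.0251), beside 1.99% of all genes. Other marker lists also held genes that passed, beside 31.1% of all genes between genotypes under testosterone and 15.7% with testosterone in WT. The sum of 4 endothelial markers was 223 to 303 CPM in ARLmon testosterone libraries and 174 to 210 CPM in WT testosterone libraries, and 3 of 4 were higher in ARLmon. With testosterone in WT 0 of the 4 passed. Of 5 macrophage markers 2 were higher and 1 lower in ARLmon with testosterone (median log2 difference 0.56), though the sums overlapped, at 139 to 231 CPM in ARLmon and 136 to 205 CPM in WT. With testosterone in WT 1 of the 5 rose and 0 fell, though the median log2 difference was -0.40. Of 5 liver genes 1 was higher and 3 lower in ARLmon with testosterone, with sums of 49.5 to 88.0 CPM in ARLmon and 136 to 166 CPM in WT, and with testosterone in WT 1 rose and 2 fell. With vehicle 3 liver genes were lower in ARLmon and 0 higher, beside 2.38% and 1.99% of all genes. Their vehicle sums were 32.8 to 64.9 CPM in ARLmon and 101 to 147 CPM in WT.

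Of 10 kidney tubule and glomerulus markers 3 were higher and 1 lower in ARLmon with testosterone, beside 31.1% of all genes. In WT 1 of the 10 rose and 3 fell with testosterone, beside 15.7% of all genes. Their sums were 18407 to 22530 CPM in ARLmon testosterone libraries, 15565 to 29546 CPM in ARLmon vehicle libraries, 43566 to 58164 CPM in WT testosterone libraries and 20028 to 42881 CPM in WT vehicle libraries. The androgen-regulated gene Kap, part of these sums, averaged 6450 CPM in ARLmon testosterone libraries and 8184 CPM in ARLmon vehicle libraries. It averaged 39464 CPM in WT testosterone libraries and 14797 CPM in WT vehicle libraries. Kap had the highest mean of the list in all 4 groups, so the sums lean on it. Slc34a1 came next, at group means of 5025 to 6363 CPM. The glomerular gene Nphs1 averaged 22.8 CPM in WT testosterone libraries and 34.5 CPM in WT vehicle libraries. The part of these shifts in the members' differences was not tested, and in whole kidney fewer cells of a type and less RNA per cell cannot be told apart.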

How the data were processed

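The authors deposited raw read counts per gene in 4 tables, each of 10 libraries, and 1 table of log2 values. Per the labels' protocols, RNA was extracted with Nucleospin Triprep, made into TruSeq Stranded mRNA libraries and run on a HiSeq4000. The submitters' processing notes name FastQC 0.11.7, HISAT2, SAMtools 1.5, HTSeq 2.7.14, DESeq2 and the build mm10. Annotation, strand setting and settings of each step are not given in the sources used here. The log2 values were exported by the authors from Qlucore, per the file headers, with no scaling stated; that header gave each library code its group.

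The tables were joined by gene symbol (24762 genes; 12045 values absent from a table were set to 0). In R 4.3.3 with edgeR 4.0.16, genes were filtered by filterByExpr (15549 kept), scaled by TMM and fitted with 4 group means (16 residual degrees of freedom). The 5 contrasts used the quasi-likelihood test, called at an adjusted p below 0.05. Alternatives used DESeq2 1.42.0 and limma 3.58.1 (voom, and the deposited log2 values), relative log expression (RLE) scaling, library size alone, no filter, at least 1 CPM in 5 libraries, the 10 most abundant genes left out, only the groups compared, and each library left out. CPM are scaled by TMM; counts per library set their precision, and genes at a few CPM rest on few reads.

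The members and lists were chosen with earlier results of these data known. Values in every library are printed for members called in any contrast and, in a role with none, for the 2 with the smallest p; of each pathway list up to 3 called genes per contrast are named. Gene positions were read from GENCODE M21 (GRCm38); promoter sequences come from RefSeq GRCm38.p6. Figures were drawn with matplotlib 3.10.9.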

Additional observations from a re-analysis of the deposited data

Results flagged for a closer look

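In each group of 5 libraries the highest and the lowest value of every member were compared with their nearest neighbour, and 14 of 148 member and group pairs had a value set apart from the other 4 (Dixon's ratio above 0.71). Chance alone gives about 1 in 20 such groups. The ARLmon vehicle library GC078618 supplied 5 of them: it was high for Calr at 950.2 CPM, Dnajb11 at 103 CPM and Ppp1r15a at 35.4 CPM, and low for Eif2ak3 at 29.3 CPM and Trib3 at 1.45 CPM. The WT vehicle library GC078604 was low for Dnajb9 at 18.7 CPM and for Atf6 at 50.05 CPM. Both libraries also lay farthest out on the main axis of spread within groups, and without the pair 6 ER arm members rose with testosterone in WT in place of 7.

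The ARLmon testosterone library GC078615 was low for Phgdh at 7.30 CPM and for Derl3 at 0.304 CPM, and GC078612 of the same group was low for Ern1 at 22.1 CPM. The ARLmon vehicle library GC078620, which carried the adrenal markers, was high for Derl3 at 1.95 CPM. Among WT testosterone libraries GC078607 was low for Phgdh at 4.08 CPM, GC078610 high for Trib3 at 1.48 CPM and GC078611 high for Manf at 71.2 CPM.

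The effect of testosterone differed between genotypes for 3 members, by the test of the difference itself. On the log2 scale, ARLmon minus WT, it was -1.09 for Edem1, -0.64 for Dnajb11 and -0.40 for P4hb. Of the 3 calls only that of Edem1 held under every setting run. The call of Dnajb11 was lost with library size alone and with the deposited log2 values. The call of P4hb was lost with both of these, without the filter on low counts, and in 16 of 20 fits that left out 1 library.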

How the results depend on the processing

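No called member changed direction under any setting run. In WT 7 ER arm members rose with testosterone, and 4 did with library size as the only scaling, without the filter on low counts, with only the groups compared in the fit, and with limma on the deposited log2 values; leaving out single libraries gave 4 to 8. Of the ATF4 arm 4 fell, 6 with library size alone, which added Atf5 and Ddit3, 2 with limma-voom and 2 to 4 without single libraries. The limma-voom fit lost Psat1 and Trib3. Psat1 was also lost with only the groups compared in the fit and with the deposited log2 values. In ARLmon 0 members were called under every setting run, single libraries left out included (0 to 0). Between genotypes under testosterone, 16 ER arm members were lower, but 4 with library size alone and 4 with the deposited log2 values (11 to 16 without single libraries). Of the ATF4 arm 4 were higher, 7 with library size alone and 7 with the deposited log2 values, which added Asns, Psph and Ppp1r15a (2 to 4 without single libraries). Trib3 lost this call with limma-voom, without the filter and with only the groups compared. With vehicle the count in the ER arm was 0, 1 with DESeq2, 1 without GC078604 and GC078618 (an alternative chosen after the data were seen), and 0 to 2 without single libraries; in the ATF4 arm it was 0 throughout. The difference of the effects passed for 3 ER arm members, 1 (Edem1) with library size alone, 1 (Edem1) with the deposited log2 values and 2 to 3 without single libraries; for the ATF4 arm it was 0, 1 with library size alone and 0 to 1 without single libraries. Why these counts moved was not tested, beyond the shift of all genes that library size alone and the deposited log2 values bring. The deposited log2 values moved the median of all genes to -0.16 with testosterone in WT, with 996 genes higher and 2570 lower, and to 0.27 between genotypes under testosterone, with 6045 higher and 1400 lower. In the test without the filter Fgf21 was called lower in ARLmon with testosterone, on 0 reads in ARLmon against 6 in WT. No paired analysis was possible because the columns carry library codes and no replicate number. Trib3, Derl3, Chac1, Atf3 and Fgf21 rest on few reads, where depth limits what can be seen.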
